A study of Mus musculus with 4 samples.

Results

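Mouse CD4+ T cells grown under Th2 conditions without the transcription factor STAT6 were set against wild type cells grown under Th1 conditions, to see how far Th2 cultures that lack STAT6 resemble Th1 cells. The comparison used 2 of the 4 arrays of the series, 1 for each group, picked by their labels of genotype and culture condition. It ran over all 45037 probe sets that are not array controls, of 45101 on the array. The wild type cells came from C57BL/6J mice, and the STAT6-deficient cells from the strain labelled B6.129S2©-STAT6<tm1Gru>/J. The remaining arrays, wild type Th2 (C57BL/6J) and STAT4-deficient Th1 (labelled C57BL6-STAT4<tm1>), serve below as reference levels.

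In every group naive CD4+CD44-CD62L+ T cells of spleen and lymph nodes were sorted. They were stimulated by antibodies against CD3 and CD28 for 3 days and cultured in interleukin-2 (50 U/ml) for 4 days more. Th1 cultures received interleukin-12, at 20 ng/ml in the first phase and 10 ng/ml in the second, and an antibody against interleukin-4 in the first phase. Th2 cultures received interleukin-4 at 10 ng/ml in both phases and an antibody against interferon gamma in the first. After 7 days in all, the CD3 and CD28 stimulus was repeated for 2 h, with interleukin-12 for Th1 and interleukin-4 for Th2. Genotype, cytokine and blocking antibody thus all differ between the arrays compared, and their shares in any difference cannot be told apart. The age, sex and number of the mice are not given in the sources used here.

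As background, interleukin-4 binds a receptor that activates STAT6, and STAT6 drives Gata3 and, with it, the Th2 cytokine program. Interleukin-12 activates STAT4, which acts with T-bet, the product of Tbx21, to open the interferon gamma gene and other Th1 genes. Another pathway matters here: type I interferons act through a receptor that activates STAT2, which with IRF9 takes part in a complex that binds the interferon-stimulated response element (ISRE) and switches on antiviral genes.

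Values are log2 RMA levels, so 1 unit is a 2-fold difference. Each group has 1 array, so replicates, tests and p-values are lacking, and the number of arrays limits the precision of every value. A gene is termed higher or lower where STAT6-deficient Th2 and wild type Th1 differed by at least 1 log2 unit and the brighter array reached 5.82, the median of all probe sets on all arrays (the level minimum). Each gene is represented by its brightest probe set over the 4 arrays. In bulk RNA, fewer cells of a type and less RNA per cell cannot be told apart. The RNA also differed in quality: the 3′ probes of the beta-actin control were brighter than its 5′ probes by 2.08 log2 units on the STAT6-deficient array and by 0.32 on the wild type Th1 array, and Gapdh gave 0.77 and -0.16. The part of RNA quality in the differences below was not tested. The labelled cell type was borne out by T cell markers: Cd3e read 12.11 in wild type Th1 and 11.19 in STAT6-deficient Th2, and Cd4 read 10.79 and 9.68. Cd8a, which marks the other main T lineage, read 6.16 and 5.80.

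Across the transcriptome STAT6-deficient Th2 cells differed from wild type Th1 cells in both directions. Of 11841 genes at the level minimum, 1773 (15%) were higher than in wild type Th1, 1277 (10.8%) lower, and 3050 (25.8%) either. Each list count below is to be read beside these shares. The share of higher genes among them was 58.1% as deposited, 68.9% after median centring and 79.1% after centring on the hybridization controls. It was 53.2% after cyclic loess and 49.1% after quantile normalization, so an excess of higher genes is not settled. By the same rule wild type Th2 differed from wild type Th1 in 4058 of 12111 genes (33.5%), with 3072 (25.4%) higher and 986 (8.14%) lower. The median absolute difference from wild type Th1 was 0.578 log2 units for STAT6-deficient Th2 and 0.690 for wild type Th2. Both contrasts share the wild type Th1 array.

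**Figure D1:**
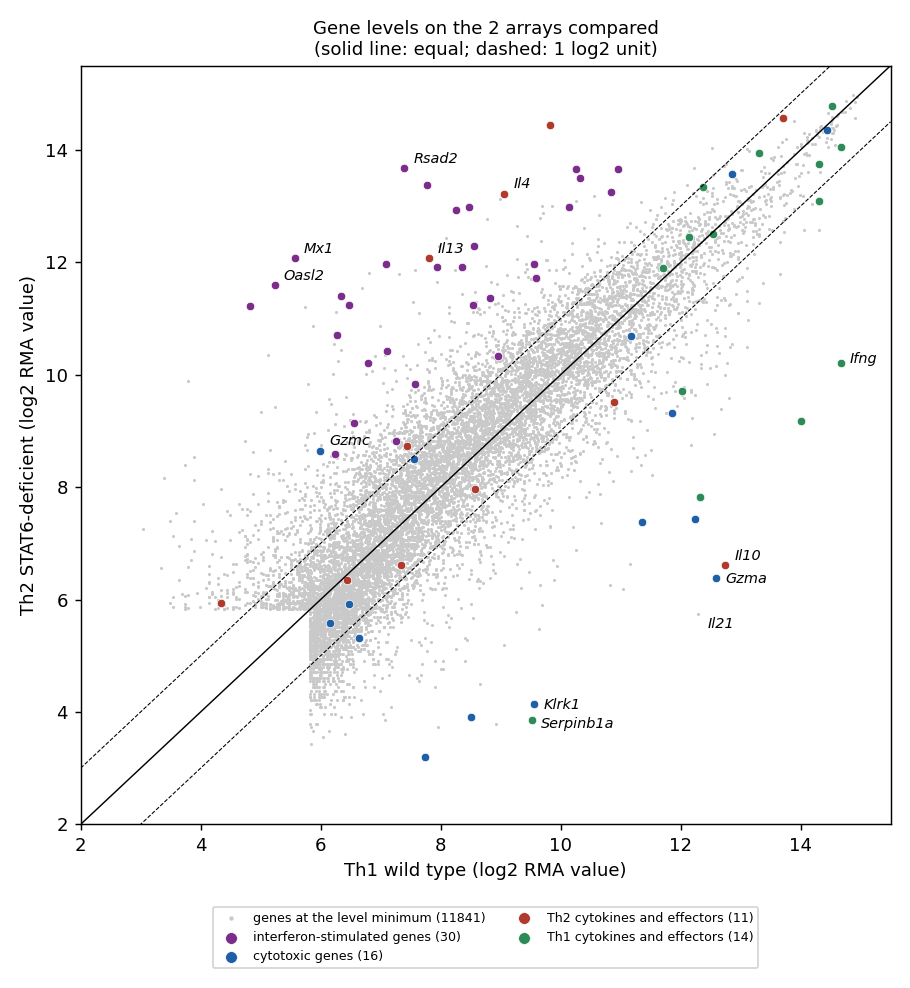
Level of each gene on the wild type Th1 array (x axis, log2 RMA value) against the STAT6-deficient Th2 array (y axis, log2 RMA value), with grey points for the 11841 genes at the level minimum and coloured points for members of 4 gene lists. The 30 interferon-stimulated genes all lie above the upper dashed line, and Il10, Gzma, Il21 and Ifng lie far below the lower one.

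Where the wild type Th1 and Th2 arrays themselves differed by at least 1 log2 unit, STAT6-deficient Th2 fell on either side in nearly equal parts. Among these 4058 genes it was nearer to wild type Th1 for 2097 (51.7%, 95% Wilson interval 50.1 to 53.2, which covers the number of genes alone). That share lay between 47.8% and 55.0% under other processing, so the side of an even split that it falls on is not settled. Of the 3072 genes brighter in wild type Th2, 1693 (55.1%) stood nearer to Th1. Of the 986 genes brighter in wild type Th1, only 404 (41.0%) did. This split by side was computed on the deposited values alone. The STAT6-deficient array had the lowest median level, 5.63 against 5.77 on both wild type arrays, and the part of scaling in the split was not tested. A further group left the range of both wild types: 405 of the 11841 genes were at least 1 log2 unit above both, and 484 at least 1 unit below both.

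Stat4 and Stat6 themselves were read first. Stat4 was 11.45 in wild type Th1, 9.20 in STAT4-deficient Th1, 8.96 in wild type Th2 and 9.90 in STAT6-deficient Th2, so STAT6-deficient Th2 had the second highest level. Stat6 read 11.17 in wild type Th1 and 10.92 in STAT6-deficient Th2, and a dimmer probe set of Stat6 differed by -1.11. Whether these probes lie in the deleted part of the gene is not known here, so they do not check the genotype.

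Among Th1 regulators and receptors, T-bet was near the Th1 level and the interleukin-12 receptor was not. Of 18 at the level minimum, 2 were higher and 9 lower than in wild type Th1, with a median difference of -1.15, against 15% and 10.8% and a median of 0.05 over all genes. The median of wild type Th2 over the same genes was -1.34. Tbx21, which encodes the master regulator T-bet, read 12.26 in wild type Th1, 11.36 in STAT4-deficient Th1, 7.69 in wild type Th2 and 11.85 in STAT6-deficient Th2. Thus T-bet message without STAT6 was within 2-fold of Th1 and far above wild type Th2. Eomes, a related T-box factor, read 8.05 against 8.46 in wild type Th1.

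Receptors for Th1-driving cytokines did not follow T-bet. Il12rb2, the signalling chain of the interleukin-12 receptor, read 9.63 in wild type Th1, 6.53 in STAT4-deficient Th1, 4.52 in wild type Th2 and 5.48 in STAT6-deficient Th2, where it was below the level minimum. Its partner chain Il12rb1 went the other way, at 7.77 in wild type Th1, 10.98 in wild type Th2 and 10.10 in STAT6-deficient Th2. The interleukin-18 receptor chain Il18r1 stood between the wild types, at 10.22 against 12.78 in Th1 and 8.28 in Th2, and the accessory chain Il18rap differed from Th1 by -0.85. Ifngr1, the ligand-binding chain of the interferon gamma receptor, was lower (-1.72), while Ifngr2 (0.06), the other chain, was at 6.18 against 6.12 in Th1 and 8.93 in wild type Th2.

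Further Th1 factors were below wild type Th1. Hlx, a homeobox factor that acts with T-bet, read 7.77 in wild type Th1, 7.01 in wild type Th2 and 5.08 in STAT6-deficient Th2. Twist1, which limits Th1 inflammation, read 8.54, 4.66 and 5.66 in the same order. Runx3, which represses Il4 in Th1 cells, differed by -1.57 on its brightest probe set but by -0.53 on another. Cxcr3, the receptor that guides Th1 cells into inflamed tissue, was part-way, at 10.80 against 12.26 in Th1 and 8.95 in wild type Th2. Cxcr6, a chemokine receptor of effector cells, was below all other arrays at 6.62, against 11.15, 8.17 and 12.52 in wild type Th1, STAT4-deficient Th1 and wild type Th2. Bhlhe40 (-0.59), Il27ra (0.63) and Irf1 (0.78) differed by less than 2-fold, and Havcr2, which encodes the inhibitory receptor TIM-3, was higher (1.63).

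**Figure D2:**
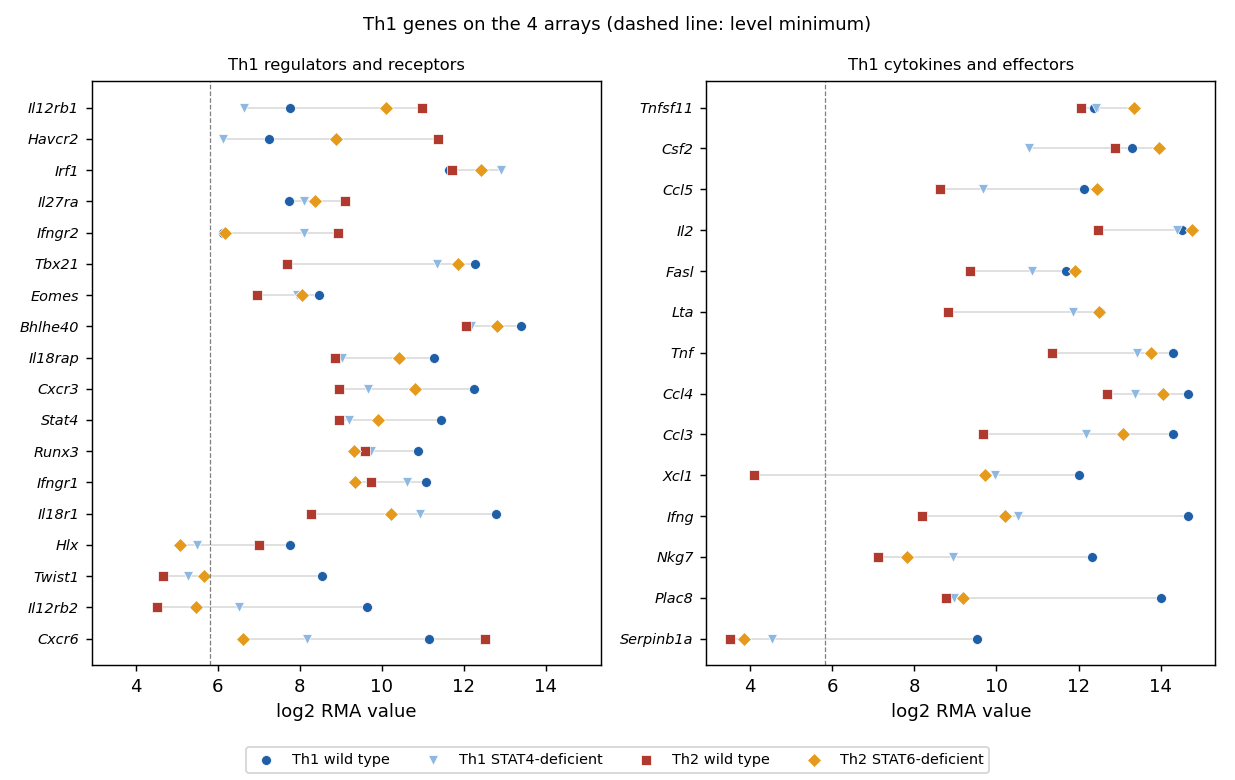
Log2 RMA level (x axis) of each Th1 regulator or receptor (left, 18 genes) and Th1 cytokine or effector (right, 14 genes) on the 4 arrays, 1 marker per array, sorted by the difference between STAT6-deficient Th2 and wild type Th1. Tbx21, Lta, Ccl5 and Il2 of the STAT6-deficient array lie near wild type Th1, while Il12rb2, Nkg7, Plac8 and Serpinb1a lie near wild type Th2.

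Th1 cytokines and effectors divided in the same way. Of 14, none was higher and 6 were lower, with a median of -0.59, whereas the same genes had a median of -3.62 in wild type Th2 against wild type Th1. Ifng, the defining Th1 cytokine, read 14.67 in wild type Th1, 10.54 in STAT4-deficient Th1, 8.18 in wild type Th2 and 10.20 in STAT6-deficient Th2. Ifng was therefore 22.2-fold lower than in Th1, and above the level of wild type Th2. Under other scalings its difference ran from -4.60 to -4.21.

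A set of inflammatory cytokines reached the Th1 level without STAT6. Lta, which encodes lymphotoxin alpha, read 12.53 in wild type Th1, 8.83 in wild type Th2 and 12.51 in STAT6-deficient Th2. Tnf, the neighbouring tumour necrosis factor gene, read 14.31, 11.36 and 13.76. Fasl, the death receptor ligand, read 11.70, 9.36 and 11.90 (another probe set differed from Th1 by -0.88). Il2, the T cell growth factor, followed them at 14.53, 12.46 and 14.77. The chemokine gene Ccl5 read 12.14 in wild type Th1, 9.68 in STAT4-deficient Th1, 8.62 in wild type Th2 and 12.45 in STAT6-deficient Th2, so it matched wild type Th1 more closely than STAT4-deficient Th1 did. Csf2 (0.65), the GM-CSF gene, was within 2-fold. Tnfsf11, which encodes RANKL, differed by 0.97 on its brightest probe set and by -1.03 on another.

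Other effectors stopped part-way or stayed at the Th2 level. Ccl3 and Ccl4, chemokines for monocytes and T cells, differed from wild type Th1 by -1.22 and -0.63. Xcl1, the chemokine lymphotactin, read 12.02 in wild type Th1, 9.97 in STAT4-deficient Th1, 4.10 in wild type Th2 and 9.71 in STAT6-deficient Th2. Nkg7, a granule protein gene of cytotoxic and Th1 cells, read 12.32, 8.95, 7.10 and 7.83 in that order. Plac8 (14.01, 8.96, 8.78 and 9.18) and Serpinb1a (9.52, 4.52, 3.49 and 3.85), a protease inhibitor gene, showed the same arrangement. For these last 3 genes wild type Th1 was the highest array by over 3 log2 units.

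The cytotoxic genes made up the group furthest below Th1. Of 16 at the level minimum, 1 was higher and 9 lower, and the median was -1.93 (wild type Th2 gave -1.19). All 16 reached the minimum in wild type Th1, but only 11 did in STAT6-deficient Th2. Klrk1, Gzmk and Klrc1 were counted only through the Th1 array, where they are bright, so the count is no independent support. Klrk1, which encodes the activating receptor NKG2D, read 9.56 in wild type Th1, 4.67 in STAT4-deficient Th1, 4.00 in wild type Th2 and 4.15 in STAT6-deficient Th2. Gzmk, granzyme K, read 8.51, 5.71, 4.00 and 3.91, and Klrc1, an NKG2 receptor gene, read 7.74, 3.63, 3.91 and 3.20. Klrd1, which encodes CD94, the partner chain of the Klrc1 product, read 11.36, 9.58, 3.36 and 7.38, so STAT6-deficient Th2 lay between the wild types. Ctsw (-4.81), a cathepsin gene of cytotoxic cells, and Slamf7 (-2.54), a surface receptor gene, were lower too.

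The granzymes did not move as a block. Gzma, granzyme A, was bright on both wild type arrays (12.59 in Th1 and 13.67 in Th2), dimmer in STAT4-deficient Th1 (8.54) and lowest in STAT6-deficient Th2 (6.39), 73.6-fold under Th1. Gzmb, granzyme B, read 12.86, 14.81, 11.73 and 13.57 in the same order, within 2-fold of Th1. Gzmc, granzyme C, was the higher member of the list, at 5.99 in wild type Th1, 7.26 in wild type Th2 and 8.65 in STAT6-deficient Th2. Perforin (Prf1, -0.59) and serglycin (Srgn, -0.08), the granule scaffold gene, differed by less than 2-fold.

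Most Th2 regulators were at or under the Th1 level, and Gata3 was above it. Of 15 at the level minimum, 2 were higher and 7 lower than in wild type Th1, with a median of -0.92, against a median of 1.61 for wild type Th2. Gata3, the master regulator of Th2 cells, read 9.31 in wild type Th1, 11.84 in STAT4-deficient Th1, 12.95 in wild type Th2 and 11.45 in STAT6-deficient Th2. Gata3 without STAT6 was thus 2.14 above wild type Th1 and close to STAT4-deficient Th1. Pparg, a nuclear receptor gene of Th2 cells, was the other higher member, at 7.29 against 5.99 in Th1 and 11.30 in wild type Th2.

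The other Th2 factors were at or under the Th1 level. Maf, an activator of Il4 and Il10, read 7.74 in wild type Th1, 6.16 in STAT4-deficient Th1, 10.48 in wild type Th2 and 5.31 in STAT6-deficient Th2, with probe sets that ran from -5.56 to 0.19. Prdm1, which encodes Blimp-1, read 7.35, 5.92, 11.09 and 5.61 in that order. Il4ra, the interleukin-4 receptor chain, read 10.76, 10.46, 11.95 and 9.42, and Nfil3 read 10.42, 9.04, 12.68 and 9.18. These genes had their highest level in wild type Th2. Epas1, which encodes the hypoxia factor HIF-2 alpha, read 6.24, 7.18, 13.67 and 6.14 in that order, so STAT6-deficient Th2 was level with wild type Th1 on this probe set, and a dimmer one read 6.16 in Th1 and 5.16 without STAT6. Junb (-2.34), Ccr4 (-1.49) and Batf (-1.09) were lower than in Th1, Gfi1 (0.13) was within 2-fold, and Il17rb was below the level minimum on both arrays. Irf4 differed by -0.21 on its brightest probe set but by -2.46 on another.

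Among Th2 cytokines and effectors, 5 of 11 at the level minimum were higher than in wild type Th1 and 2 lower, with a median of 0.85 (wild type Th2 gave 2.84). The higher members were Il4, Il13, Ccl1, Il5 and Rad50. Il5 was under the minimum in wild type Th1 and was counted only through the STAT6-deficient array. Il4 read 9.06 in wild type Th1, 12.07 in STAT4-deficient Th1, 14.17 in wild type Th2 and 13.22 in STAT6-deficient Th2. Il13, which drives mucus and tissue responses, read 7.80, 10.65, 12.26 and 12.08, within 2-fold of wild type Th2. Ccl1, a ligand of CCR8, read 9.83, 12.24, 11.83 and 14.45, above both wild types. For these 3 genes STAT6-deficient Th2 was 4.16, 4.27 and 4.62 log2 units above wild type Th1.

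Il5, by contrast, which lies beside Il4 and Il13 in the Th2 cytokine cluster and drives eosinophil growth, read 4.34 in wild type Th1, 12.31 in wild type Th2 and 5.95 in STAT6-deficient Th2, just above the level minimum. Rad50, whose gene body holds the control region of that cluster, read 7.44, 10.28 and 8.73. Il24, an interleukin-10 family cytokine gene, read 8.58, 14.60 and 7.97, and Il6 read 4.29, 12.63 and 5.42. Cyp11a1, the first enzyme of steroid synthesis, read 5.24, 13.46 and 5.77. Il5, Il24, Il6 and Cyp11a1 were far brighter in wild type Th2 than on the other arrays named, whereas Rad50 lay about midway between the wild types and was at 0.67 against Th1 with the mean of its probe sets. Ecm1, a matrix protein gene of Th2 cells, was lower (-1.38), and Il3 (0.85), Il9 (-0.08) and Ccl17 (-0.73) were within 2-fold.

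Il10 differed from the other cytokines of the list. Its levels were 12.74 in wild type Th1, 5.94 in STAT4-deficient Th1, 13.87 in wild type Th2 and 6.61 in STAT6-deficient Th2. Both knockout arrays were low, and STAT6-deficient Th2 was 70.2-fold under wild type Th1. Il21, a helper cytokine of B cells, showed the same arrangement at 12.30, 4.67, 11.62 and 5.75, and its other probe set differed by -3.24.

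**Figure D3:**
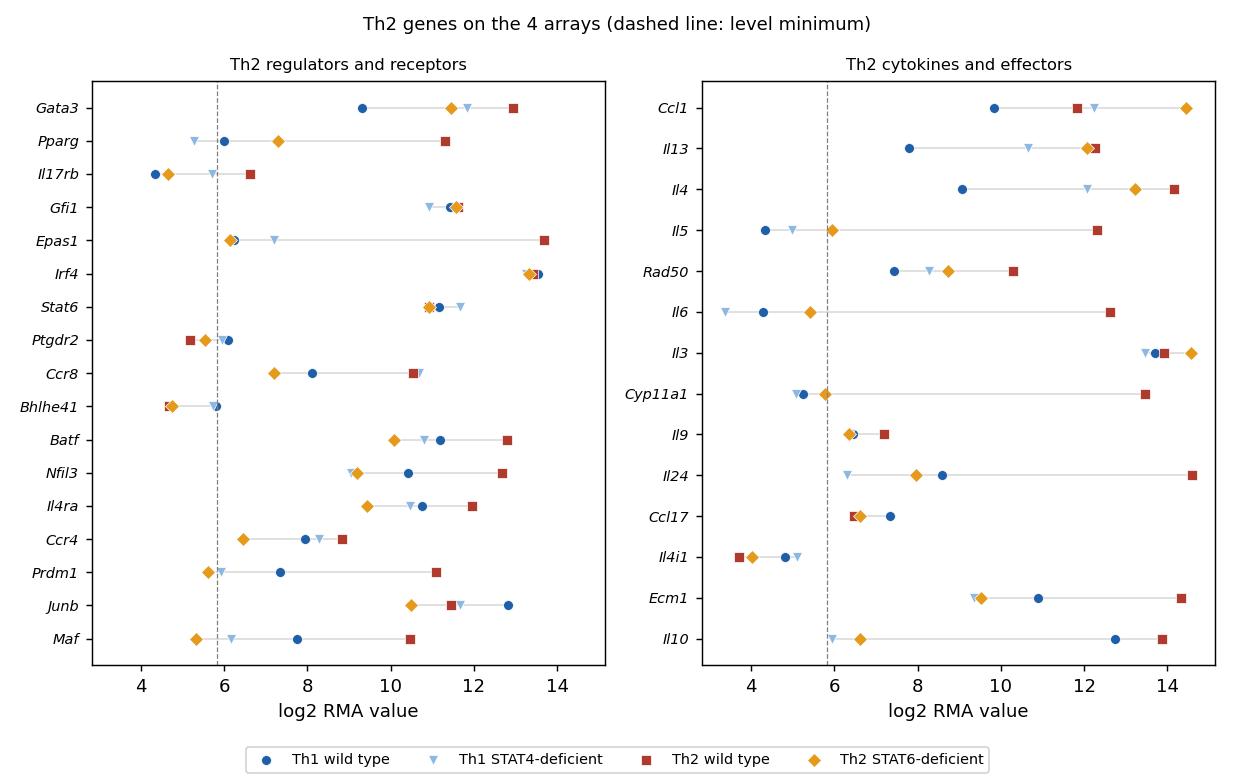
Log2 RMA level (x axis) of each Th2 regulator or receptor (left, 17 genes) and Th2 cytokine or effector (right, 14 genes) on the 4 arrays, 1 marker per array, sorted by the difference between STAT6-deficient Th2 and wild type Th1. Il4, Il13 and Ccl1 of the STAT6-deficient array lie near or above wild type Th2, while Il24, Cyp11a1 and Epas1 lie within 1 log2 unit of wild type Th1.

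The strongest departure from Th1 was the antiviral program. All 30 interferon-stimulated genes of the list were at the level minimum, and all 30 were higher in STAT6-deficient Th2 than in wild type Th1, against 15% of all genes. Their median difference was 3.41, with a range from 1.38 to 6.50; the median of wild type Th2 against wild type Th1 was 0.79. The same 30 were counted under each other scaling, and 29 with the median of all probe sets. Set beside wild type Th2, which shares the STAT6-deficient array, the median difference was 3.06.

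Antiviral effectors led the list. Mx1, a GTPase that traps viral nucleoproteins, read 5.57 in wild type Th1, 4.72 in STAT4-deficient Th1, 8.59 in wild type Th2 and 12.07 in STAT6-deficient Th2, 90.4-fold above Th1. Rsad2, which encodes viperin, read 7.40, 8.56, 9.19 and 13.68, and its neighbour Cmpk2, a nucleotide kinase gene, read 4.83, 3.58, 7.41 and 11.22. The oligoadenylate synthetase genes, whose products activate RNase L, ran alongside: Oas1a read 7.09 in wild type Th1 and 11.96 in STAT6-deficient Th2, Oas2 6.47 and 11.23, and Oas3 6.28 and 10.70. Oasl2 read 5.24 and 11.59. The wild type Th1 levels of Mx1, Cmpk2 and Oasl2 were under the level minimum, so their folds rest on a dim array.

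Regulators and sensors of the pathway were higher as well. Irf7, which amplifies interferon transcription, read 7.95 in wild type Th1, 8.27 in STAT4-deficient Th1, 9.39 in wild type Th2 and 11.91 in STAT6-deficient Th2. The viral RNA sensors Ifih1 (2.71), Ddx58 (2.70) and Dhx58 (5.07), which encode MDA5, RIG-I and LGP2, were all higher. Usp18, which shuts off the interferon receptor, differed by 5.62. Stat2 (1.56) and Irf9 (1.38), factors of the complex that binds the ISRE, had the smallest differences, and wild type Th2 was already at 8.21 and 10.19 for them, against 8.82 and 10.34. Ifit1 (3.40), Ifit2 (3.73) and Ifit3 (4.51), which recognise foreign RNA ends, were lower in wild type Th2 than in wild type Th1, so STAT6-deficient Th2 was opposite to wild type Th2 for them.

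Promoters of 4 members far above Th1, and of the interferon gene Ifna2 described next, are shown because they hold the letters of the element through which this pathway acts. The motif searched was GAAA, any 2 bases (NN), then GAAA again, on both strands, within 250 bases before the start of transcription, in RefSeq promoters of build GRCm38.p6. Capitals mark the matches, overlapping ones as 1 run, and a match on the other strand reads TTTC, NN, TTTC.
Rsad2, chr12:26456453-26456702, minus strand: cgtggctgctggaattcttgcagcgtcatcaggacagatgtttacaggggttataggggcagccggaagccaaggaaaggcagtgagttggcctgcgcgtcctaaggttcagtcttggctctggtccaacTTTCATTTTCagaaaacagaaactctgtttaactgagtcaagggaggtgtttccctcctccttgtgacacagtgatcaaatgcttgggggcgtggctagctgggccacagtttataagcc
Ifit3, chr19:34583279-34583528, plus strand: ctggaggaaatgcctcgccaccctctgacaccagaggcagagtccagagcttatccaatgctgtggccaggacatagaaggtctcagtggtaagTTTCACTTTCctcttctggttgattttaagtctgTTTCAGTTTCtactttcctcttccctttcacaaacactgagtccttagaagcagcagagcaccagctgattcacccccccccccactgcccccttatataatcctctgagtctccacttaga
Oas1a, chr5:120907526-120907775, minus strand: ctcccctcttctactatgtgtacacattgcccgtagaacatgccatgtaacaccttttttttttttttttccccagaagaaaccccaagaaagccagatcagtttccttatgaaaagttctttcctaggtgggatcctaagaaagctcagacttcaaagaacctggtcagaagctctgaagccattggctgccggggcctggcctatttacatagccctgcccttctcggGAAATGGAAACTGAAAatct
Ifit1, chr19:34640639-34640888, plus strand: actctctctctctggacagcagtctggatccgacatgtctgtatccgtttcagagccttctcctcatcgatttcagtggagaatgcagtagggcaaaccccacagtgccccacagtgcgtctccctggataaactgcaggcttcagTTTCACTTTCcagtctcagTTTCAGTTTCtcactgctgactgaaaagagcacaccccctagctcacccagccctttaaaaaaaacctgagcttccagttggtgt
Ifna2, chr4:88683780-88684029, minus strand: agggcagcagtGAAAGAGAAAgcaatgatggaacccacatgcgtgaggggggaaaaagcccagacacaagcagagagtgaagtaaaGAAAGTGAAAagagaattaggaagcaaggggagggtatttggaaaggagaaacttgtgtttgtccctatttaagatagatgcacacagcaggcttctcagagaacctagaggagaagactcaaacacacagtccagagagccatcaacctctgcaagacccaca

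In Rsad2 the match began 120 bases before the start, in Ifit3 156 and 122, in Ifit1 104 and 85, and in Oas1a 20 and 14, where the 2 matches overlap. Of the 30 list members 21 had a promoter in the table, and 8 of these (38.1%, 95% Wilson interval 20.8 to 59.1) held a match. Over all 27025 genes with a RefSeq promoter, 936 (3.46%) did. The share was 5.41% among the higher genes with a promoter (78 of 1443) and 2.84% among the lower ones (29 of 1022). The promoters of Cmpk2 and Oasl2 held no match in this window. A match describes letters and is not shown here to be a bound site.

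Genes of the interferons themselves were also higher. Of 8 type I and III interferon genes at the level minimum 6 were higher and none lower, beside 15% and 10.8% of all genes, with a median of 1.97. Of the 9 measured, 5 reached the minimum in wild type Th1 and 7 in STAT6-deficient Th2. Ifnb1, Ifna5 and Ifnab were under it in wild type Th1. They were counted only through the array where they are bright, so the count is no independent support. Ifna2 read 5.87 in wild type Th1, 6.03 in STAT4-deficient Th1, 5.09 in wild type Th2 and 10.87 in STAT6-deficient Th2. Ifna4 read 6.20, 5.96, 5.72 and 10.01, and Ifnb1, the interferon beta gene, read 5.77, 5.41, 5.05 and 8.89. On every other array these genes read 6.20 or less, and only STAT6-deficient Th2 was bright. Ifna5 (1.85), Ifnab (2.09) and Ifnz (1.05) were higher, and Ifna1 (0.97) and Ifna9 (-0.82) within 2-fold. The interferon alpha genes are near-identical copies, so their probe sets may read each other's transcripts. Promoter matches in Ifna2 began 239 and 164 bases before its start.

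**Figure D4:**
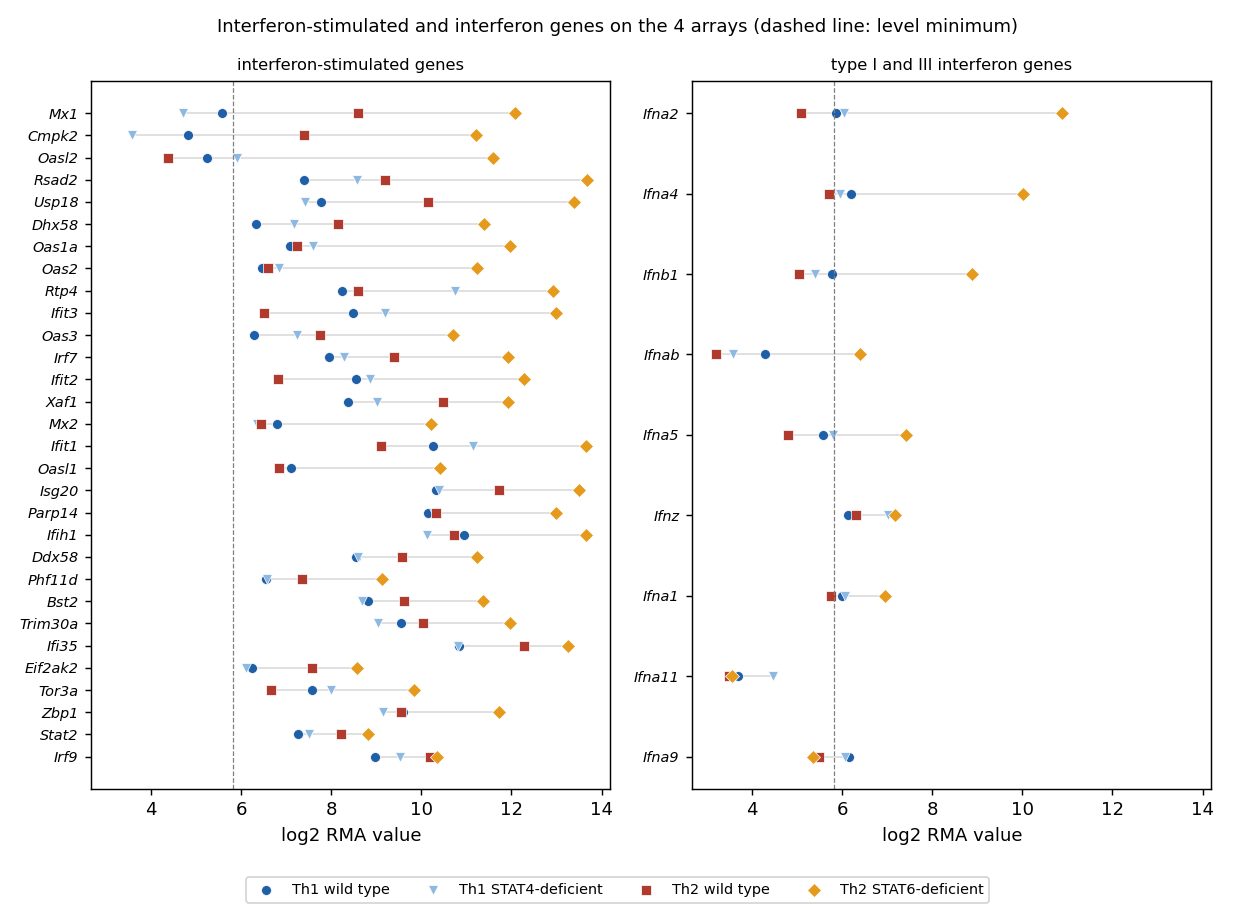
Log2 RMA level (x axis) of the 30 interferon-stimulated genes (left) and the 9 measured type I and III interferon genes (right) on the 4 arrays, 1 marker per array, sorted by the difference between STAT6-deficient Th2 and wild type Th1. The STAT6-deficient marker is the rightmost of its row for every interferon-stimulated gene, and for Ifna2, Ifna4 and Ifnb1 it stands alone.

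The interferon-inducible GTPases, which attack intracellular microbes and respond to interferon gamma as well as type I interferon, sat differently. Of 8, 5 were higher than in wild type Th1 and none lower, with a median of 1.28, while wild type Th2 had a median of -0.95. Gbp2 read 13.42 in wild type Th1, 11.92 in STAT4-deficient Th1, 9.92 in wild type Th2 and 13.05 in STAT6-deficient Th2, and Gbp3 read 11.35, 9.99, 8.13 and 11.46. These reached the Th1 level, whereas Gbp6 (3.15), Irgm1 (2.29) and Irgm2 (2.10) exceeded it. All 6 members with a promoter in the table held an ISRE match. Genes of antigen processing for MHC class I were partly higher, 4 of 12 with none lower and a median of 0.72, led by the peptide transporter Tap1 (2.16), its regulator Nlrc5 (1.38) and Tapbp (1.19), of which another probe set gave -1.81. With the mean of all probe sets Tap1 was at 0.47. The class I chains H2-K1 (-0.33) and H2-D1 (-0.49), which were near the top of the array's scale at 14.57 and 14.09, were within 2-fold.

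Chemokines and their receptors took opposite directions. Of 22 at the level minimum, 5 were higher and 9 lower, with a median of -0.68. Ccr2, a receptor for monocyte chemokines, read 9.94 in wild type Th1, 7.92 in STAT4-deficient Th1, 10.05 in wild type Th2 and 6.60 in STAT6-deficient Th2, and Ccr1 read 8.04, 5.03, 9.92 and 4.76. Among ligands, Cxcl10, an interferon-induced chemokine that attracts CXCR3+ cells, read 10.64, 10.67, 7.79 and 12.84. Ccl20 (2.36), Cxcl2 (1.34) and Ccl9 (1.07) were higher too. The 5 higher members were thus all ligands, and the 9 lower ones held Xcl1, Ccl2, Ccl3 and 6 receptors. Ccr7, the lymph node homing receptor, was 10.82 against 10.80, and Cxcl3 was bright in wild type Th2 alone (10.52, against 3.20 without STAT6).

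Ligands of the tumour necrosis factor family had a median close to Th1 and members on both sides of it. Of 13, 2 were higher and 3 lower, beside 15% and 10.8% of all genes, and the median was -0.03, whereas wild type Th2 had a median of -1.77. Ltb (-0.59) and Tnfsf9 (-0.19), which encodes 4-1BB ligand, were within 2-fold. Tnfsf14, which encodes LIGHT, differed by 0.11 on its brightest probe set but by -2.81 on another. The exceptions were wide. Cd70, the ligand of CD27, read 6.90 in wild type Th1, 5.13 in wild type Th2 and 10.34 in STAT6-deficient Th2, and Tnfsf10, which encodes the interferon-inducible ligand TRAIL, read 5.80, 8.88 and 8.95. Tnfsf8, the CD30 ligand gene, was lower (12.20, 10.65 and 9.23), as was Cd40lg (-1.52), which encodes CD40 ligand. Tnfsf13b, which encodes BAFF, was lower (-1.97) on its brightest probe set and at -0.83 with the mean of all its probe sets.

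Part of the restimulation response was lower than in Th1. Of 29 genes of the T cell receptor response, 2 were higher and 8 lower; the median was -0.65, and wild type Th2 had a median of -0.92. The lower genes were mainly immediate-early factors of the AP-1 and EGR families. Jun read 12.25 in wild type Th1, 10.42 in STAT4-deficient Th1, 9.53 in wild type Th2 and 9.64 in STAT6-deficient Th2. Fos (-1.86), Fosb (-1.95) and Egr1 (-1.14) were lower, as was Rel (-1.70), a factor of the NF-kappaB family. The other 19 members were within 2-fold. The least different, chosen by that measure, were Nfkbid at 14.32 against 14.37, the early activation marker Cd69 at 12.33 against 12.29, and Nfkbia, an inhibitor of NF-kappaB, at 14.11 against 14.19 (a further probe set of Nfkbia differed by -1.04). Rcan1, a calcineurin regulator gene, was higher (1.71) on its brightest probe set and at -2.31 on another. The count of lower members was 12 when probe sets were averaged.

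T lineage and memory genes were called about as often as all genes or less. Of 16 T lineage and receptor complex genes, none was higher and 2 were lower, beside 15% and 10.8% of all genes. The lower ones were Cd247, the CD3 zeta chain (-1.43, with other probe sets at -0.86 and -3.34), and Cd4 (-1.11, with another at -2.90). Of 16 naive and memory genes, 2 were higher and 2 lower. Il7r, the interleukin-7 receptor, read 12.62 in wild type Th1, 12.88 in wild type Th2 and 10.75 in STAT6-deficient Th2, and Satb1, a chromatin organiser, read 13.37, 13.66 and 11.63. Dapl1 read 9.07, 6.12 and 11.14, and Bach2, which restrains effector differentiation, 10.35, 10.26 and 11.71. Probe sets disagreed in sign for Bach2 (from -0.87 to 1.36) and Satb1 (from -1.75 to 0.59). Of 13 regulatory T genes, 2 were higher and 2 lower, and Foxp3 was under the level minimum on both arrays. Ctla4, an inhibitory receptor gene, was lower (-1.98).

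Genes of other helper programs were called in both directions. Of 9 Th17 genes 3 were higher and 2 lower, beside 25.8% of all genes in either direction: Rora, a Th17 regulator, read 9.31 in wild type Th1, 7.39 in wild type Th2 and 11.11 in STAT6-deficient Th2, and Il17a read 5.74, 7.41 and 6.56. The probe sets of Rora ran from -0.91 to 2.87. Of 10 follicular helper genes 1 was higher and 1 lower, namely Bcl6 (1.05, but -0.95 on another probe set), their master regulator, and Il21. Btla (0.25) and Pdcd1 (0.38), inhibitory receptor genes, were within 2-fold of Th1, and Btla was at 10.39 in wild type Th2 against 13.17. Of 12 costimulatory and inhibitory receptors 3 were higher and 2 lower, and Cd160, an inhibitory receptor gene, read 9.17, 7.09 and 11.48.

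Signalling genes moved both ways. Of 18 JAK-STAT genes, 4 were higher and 5 lower. The higher ones were Stat2 (with a dimmer probe set at 0.93), Stat5a (1.52), Stat5b (1.41) and Tyk2 (1.48), a kinase of the interferon and interleukin-12 receptors. All but Stat2 had a further probe set of the opposite sign, at -1.21 for Stat5a, -0.33 for Stat5b and -0.87 for Tyk2. Jak1 (-1.69, with other probe sets at -1.56 and -4.93), its partner in the type I interferon receptor, was lower. The receptor chains Ifnar1 (0.21) and Ifnar2 (-0.47) were within 2-fold. Of 13 STAT feedback genes 3 were lower and 1 higher. Pim2, a survival kinase gene, read 12.03 in wild type Th1, 9.88 in wild type Th2 and 9.64 in STAT6-deficient Th2, and Socs3, an inhibitor of cytokine receptors, read 11.17, 11.77 and 9.17.

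Cell cycle genes placed STAT6-deficient Th2 between the wild types and closer to Th1. Of 23 DNA replication genes 9 were higher than in wild type Th1 and none lower, with a median of 0.71, against 2.08 for wild type Th2. All 23 reached the level minimum in STAT6-deficient Th2 and 21 in wild type Th1. Members such as Cdc6 were counted only through the STAT6-deficient array, so the count is no independent support. Cdc6, a loader of the replicative helicase, read 4.24 in wild type Th1, 4.31 in STAT4-deficient Th1, 9.58 in wild type Th2 and 7.04 in STAT6-deficient Th2. Of 24 mitosis genes 7 were higher and none lower, with a median of 0.46 against 2.29 for wild type Th2; after quantile normalization or cyclic loess 3 were higher. Kif23, a motor of cell division, was at 8.06 in both wild type Th1 and STAT6-deficient Th2 and at 11.68 in wild type Th2. Mki67, the proliferation antigen gene, read 10.27, 11.34 and 12.52 in the order wild type Th1, STAT6-deficient Th2 and wild type Th2. Among cell cycle inhibitors and cyclins, Btg2, an antiproliferative gene, read 12.74 in wild type Th1, 8.91 in wild type Th2 and 10.00 without STAT6 on its brightest probe set. On another it read 11.90, 9.48 and 8.99 in the same order, so which array was lowest differed between probe sets.

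Metabolic genes were closer to Th1 than to wild type Th2 in their medians. Glycolysis genes had a median of 0.15, with 1 higher and 2 lower of 15, against 1.07 for wild type Th2. Aldoc, an aldolase gene, was the higher member (8.90 in wild type Th1, 12.26 in wild type Th2 and 11.27 in STAT6-deficient Th2). Slc2a1, the glucose transporter gene, was lower (-1.40). Sterol synthesis had a median of 0.03 against 0.89, with 1 higher, Idi1 (1.12), and 1 lower, Stard4 (-1.60, but -0.20 on another probe set), of 20. Hypoxia-response genes had 2 higher and 3 lower of 15 and a median of -0.11. Bnip3, a mitophagy gene, read 8.39 in wild type Th1, 12.95 in wild type Th2 and 8.57 in STAT6-deficient Th2.

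The integrated stress response list had 4 higher and 3 lower members of 17, with a median of 0.34, against 1.52 for wild type Th2. The 4 higher members, singled out here by their values, are enzymes of serine metabolism and asparagine synthesis. Psat1 read 9.77 in wild type Th1, 10.70 in STAT4-deficient Th1, 12.52 in wild type Th2 and 12.05 in STAT6-deficient Th2. Phgdh, the first enzyme of serine synthesis, read 10.19, 11.20, 12.65 and 12.16, and Shmt2, the mitochondrial serine enzyme, read 9.91, 10.65, 11.48 and 11.63. Asns, asparagine synthetase, read 9.10, 8.54, 11.36 and 10.59. The stress factors Atf3 (-1.90) and Ddit3 (-1.46) of the same list were lower than in Th1.

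Among chromatin enzymes the DNA methylation list had 3 higher and 1 lower of 8, beside 15% and 10.8% of all genes. Dnmt3a, a de novo DNA methyltransferase gene, read 9.41 in wild type Th1, 10.56 in STAT4-deficient Th1, 10.18 in wild type Th2 and 11.83 in STAT6-deficient Th2. Tet3, which encodes a demethylating dioxygenase, read 7.64, 8.20, 7.86 and 5.24. Of 19 histone methylation enzymes 3 were higher, led by Kmt2b (1.85), and 1 was lower, Kdm6a (-1.34, with another probe set at 0.07). These counts were near or under the shares of all genes. The BCL2 family had 1 higher, Bid (1.96, with another probe set at 0.85), and 1 lower, Pmaip1 (-2.57), of 11, both genes that promote cell death.

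Housekeeping genes differed less. None of 17 cytosolic ribosomal protein genes was higher or lower, with differences from -0.38 to 0.24. The respiratory chain had 2 higher and none lower of 24, with a median of 0.28. Of 12 reference genes 1 was higher, Gusb (2.23, but 0.06 on another probe set), and 1 lower, Actb (-1.72), whose other probe set differed by -0.05. Across 5189 genes with several probe sets at the level minimum, the disagreement between probe sets of a gene had an SD of 0.893 log2 units. Among 1274 higher or lower genes with several such probe sets, the sign was shared by every probe set in 68.1%. This spread does not cover variation between mice or cultures.

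The genes furthest from Th1 in each direction, with all their probe sets at the level minimum on the same side, repeated these groups. Of the 15 highest, Mx1, Cmpk2, Oasl2, Rsad2, Usp18, Dhx58, Oas1a, Oas2 and Ifna2 are described above. Parp12 (5.46), Slfn5 (5.22) and Trim30d (6.81 in wild type Th1 and 11.82 in STAT6-deficient Th2), further interferon-responsive genes, were not in the lists. The remaining ones were Idi2, an isopentenyl isomerase gene (3.78 in wild type Th1 and 9.89 in STAT6-deficient Th2), Acsl6, a fatty acid activating enzyme gene (6.69 and 11.54), and Il33, an alarmin gene (3.39 and 8.17). Of the 15 lowest, Il21, Gzma, Il10, Serpinb1a, Klrk1, Plac8, Ctsw, Gzmk, Klrc1, Cxcr6, Nkg7 and Ifng are described above. Esm1, an endothelial secreted proteoglycan gene, read 8.93 in wild type Th1, 3.19 in STAT4-deficient Th1, 7.77 in wild type Th2 and 3.79 in STAT6-deficient Th2. Tent5c, a poly(A) polymerase gene, read 11.04, 8.91, 11.16 and 6.18. Ffar2, a short-chain fatty acid receptor gene, read 10.83, 6.50, 7.61 and 6.26.

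Markers of other cells were mostly dim. Of 12 myeloid and dendritic cell markers at the level minimum, 4 were lower (H2-Aa, Fcgr3, Flt3 and Lyz2) and 1 higher, Bst2 (2.55), which is also in the interferon-stimulated list. Siglech, which marks plasmacytoid dendritic cells, read 6.39 in wild type Th1 and 5.58 in STAT6-deficient Th2, where it was under the level minimum. Which cells gave the interferon signal was not tested. The summed level of the 15 measured myeloid markers, Bst2 included, was 11.34 in wild type Th1 and 12.08 in STAT6-deficient Th2 on the log2 scale. Bst2 alone read 8.82 and 11.37, and a sum without it was not computed. The higher sum therefore does not describe the myeloid markers as a group. Of 9 measured B cell markers only Ighm (9.98 against 8.76, with a difference of -2.48 on another probe set) reached the level minimum without STAT6. Of 8 measured mast cell and basophil markers 3 were at the level minimum. Among these Cpa3 (-2.06) and Kit (-1.03) were lower and none was higher. Hdc differed by -0.09 on its brightest probe set but by 2.21 on another. Of 9 measured CD8 and NK cell markers 4 were at the level minimum. None of these was higher or lower, and Cd8b1 read 6.47 against 7.41. No member was higher among the neutrophil, erythroid and platelet, and gamma delta and NKT markers, and 1 of 4, 1 of 2 and 0 of 2 at the level minimum were lower. The summed level of the CD8 and NK markers was 9.08 in STAT6-deficient Th2 and 9.54 in wild type Th1.

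**Figure D5:**
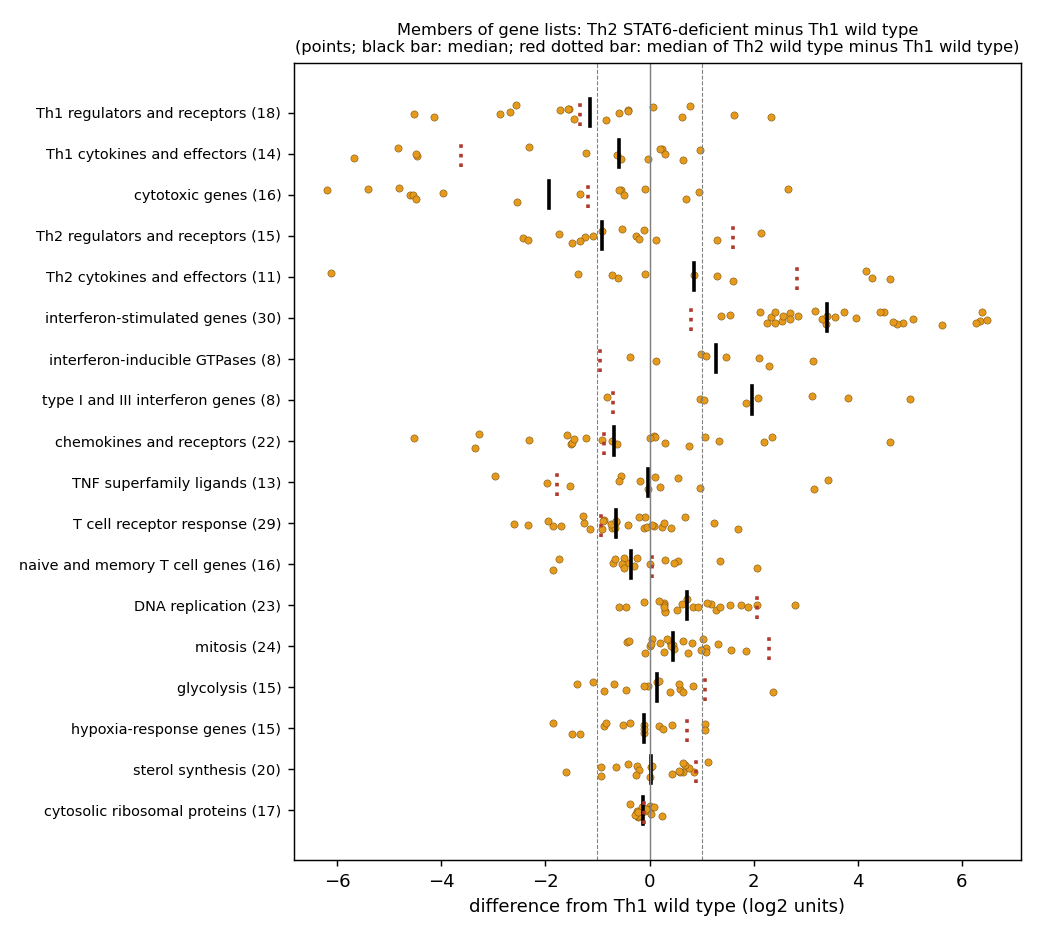
Difference between STAT6-deficient Th2 and wild type Th1 (x axis, log2 units) for each member of 18 gene lists at the level minimum, with a black bar at the list median and a red dotted bar at the median of wild type Th2 minus wild type Th1. Interferon-stimulated genes have the median furthest above 0 (3.41), cytotoxic genes the one furthest below (-1.93), and ribosomal protein genes stay within 1 log2 unit.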

How the data were processed

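Total RNA of cultured CD4+ T cells was biotin-labelled and hybridised to Affymetrix Mouse Genome expression arrays, 1 per group. The authors deposited 1 log2 level for each probe set, computed with RMA according to the submitters' processing notes; its version and the other settings are not given in the sources used here. Array medians ran from 5.63 to 6.01, so the arrays do not share 1 distribution, and a scaling can move all differences together. The median difference over all genes was -0.09 as deposited and 0.17 after centring on hybridization controls.

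Of 45037 probe sets that are not controls, the platform annotation gave 1 gene for 34945, several for 932 and none for 9160. Symbols were updated through RefSeq (GRCm38.p6) for 34741, which gave 18193 genes. Genes without a probe set of their own there were not analysed here. Promoters were matched by symbol for 9570 of 11841 genes.

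Python 3.11.15, pandas 2.3.3, numpy 2.4.6, scipy 1.17.1, matplotlib 3.10.9, R 4.3.3 and limma 3.58.1 (quantile and cyclic loess scaling) were used. The calculations were tested on simulated data. The design called for no test, since each group has 1 array. The members and the 43 lists (585 of 665 genes measured) were chosen with earlier results of these data known. Named genes are Stat4, Stat6, the Th1 and Th2 lists, the 15 furthest in each direction, up to 5 called and 3 least different members of each other list, and the 5 furthest outside both wild types on each side; other list members named, and not all that the rule gave are, were chosen after their values were seen. Alternatives were 4 scalings, 2 level minima, 2 ways to join probe sets and a threshold of 1.5 log2 units.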

Additional observations from a re-analysis of the deposited data

Results flagged for a closer look

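The array's own beta-actin and Gapdh control probes, which entered no comparison, differed on the STAT6-deficient Th2 array. Its 3′ probes for beta-actin were brighter than the 5′ probes by 2.08 log2 units, compared with 0.32 on the wild type Th1 array. For Gapdh the values were 0.77 and -0.16. Its part in the differences between the arrays was not tested.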

How the results depend on the processing

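No paired analysis was possible because each group has 1 array and the labels give no replicate numbers, and for the same reason no array could be left out. All alternatives were run on the same arrays. The number of genes higher or lower was 3050 as deposited, 1983 with the level minimum at the 75th percentile and 1279 at 1.5 log2 units, where 789 were higher. The share of genes nearer to wild type Th1 was 51.7%, and became 47.8% after median centring, 49.0% after quantile normalization, 49.2% with no level minimum, 54.9% with the minimum at the 75th percentile and 55.0% at 1.5 log2 units. Higher mitosis genes were 7 as deposited, 3 after quantile normalization, 3 after cyclic loess and 2 at 1.5 log2 units. At 1.5 log2 units higher DNA replication genes went from 9 to 5, lower Th2 regulators from 7 to 3 and lower T cell receptor response genes from 8 to 5. Higher naive and memory genes went from 2 to 1 with the mean or median of all probe sets and at 1.5 log2 units. The cause of these shifts was not tested, other than that a stricter threshold or minimum counts fewer genes by construction. Of 149 named higher or lower genes, 15 lost that status under at least 1 scaling (Batf, Bcl6, Ccl2, Ccl3, Ccl9, Cd4, Egr1, Flt3, Idi1, Ifnz, Ighm, Kit, Lyz2, Mki67 and Nfil3), and 20 with the mean or median of all probe sets (Actb, Bach2, Bcl6, Bid, Ccl9, Dhx58, H2-Aa, Ighm, Kdm6a, Rad50, Rcan1, Rora, Satb1, Stard4, Stat5a, Stat5b, Tap1, Tapbp, Tnfsf13b and Tyk2). With the mean of all probe sets the sign turned for Ighm (-0.43), Rcan1 (-0.30) and Tapbp (-0.31), and with the median for these (-1.26, -0.30 and -0.31) and Bach2 (-0.44). No depth applies to arrays; signal near the level minimum limits the fold of genes that are dim on 1 array.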

Other observations

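A few genes far from wild type Th1 lie in none of the lists; they were picked with their values in view. Penk, which encodes the opioid precursor proenkephalin, read 8.10 in wild type Th1, 8.76 in STAT4-deficient Th1, 13.75 in wild type Th2 and 12.43 in STAT6-deficient Th2, so it stayed near the Th2 level without STAT6. The metallothionein genes Mt1 and Mt2, whose products bind zinc, were 3.61 and 3.23 log2 units lower in STAT6-deficient Th2 than in wild type Th1.

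Some genes were bright on both knockout arrays alone. Lad1, an anchoring filament protein gene, read 7.31 in wild type Th1, 11.90 in STAT4-deficient Th1, 6.84 in wild type Th2 and 11.79 in STAT6-deficient Th2. Ccn3, a matricellular protein gene, read 3.88, 8.02, 4.19 and 8.55 in that order.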
